A study of Homo sapiens with 66 samples.

Results

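The Schlafen genes are a family of 6 neighbouring genes on human chromosome 17, namely SLFN5, SLFN11, SLFN12, SLFN12L, SLFN13 and SLFN14. The members were taken by symbol after Ensembl identifiers had been mapped to names, and all 6 were found among the 57992 gene identifiers analysed. The data are reads counted per gene in 66 RNA sequencing libraries from 11 established acute myeloid leukemia (AML) cell lines, which are F36P, HL60, KASUMI1, MOLM13, MONOMAC6, MV411, NB4, NOMO1, OCIAML2, OCIAML3 and THP1. Each cell line was either left untreated, with medium only, or exposed for 24 hours to etoposide, with 3 libraries per group and RNA of 3 pooled wells in each library. Etoposide is a topoisomerase II poison that leaves protein-linked double strand breaks in DNA. Every cell line received its own IC50, the inhibitory concentration found for it in a viability assay, so the concentrations differed between cell lines and a change in one cell line is a change at that cell line's concentration. The controls received medium, and each cell line stands for 1 leukemia.

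Libraries held between 17997404 and 24101670 reads on genes, and the etoposide and untreated libraries spanned overlapping ranges. The sequence data of the OCIAML2 libraries labelled etoposide failed the study's quality control. With edgeR, 0 of 13604 genes tested were called induced in OCIAML2 (0%), against 456 genes at an unadjusted p under 0.05, and 0 were called by the edgeR exact test and by DESeq2. Whether these cells did not respond or were not exposed cannot be told apart. OCIAML2 is therefore given apart, and counts over cell lines use the other 10. CPM stands for the reads of a gene scaled to a common library total. Of 6 genes listed as myeloid markers, PTPRC, CD33, SPI1 and CSF3R reached at least 1 CPM in all 11 untreated cell lines. MPO reached it in 10 and KIT in 6. F36P stood apart by its erythroid genes, with 5354 CPM of HBG2 and 229 CPM of KLF1, and with 0.966 CPM of the myeloid gene MPO. HBG1 and HBG2 stayed under 1 CPM in the other 10 cell lines. KLF1 reached 1 CPM in 3 of the 11 cell lines, and EPOR, also an erythroid marker, in all 11.

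Schlafen proteins share a Schlafen core that in several members cleaves RNA, chiefly transfer RNA. The longer members also carry a helicase-like part. Transcription of several family genes rises with type I interferon, which acts through STAT2 and IRF9 on response elements in promoters. SLFN11 is known in cancer cells for binding to stalled replication forks, where it blocks replication, and high SLFN11 is associated with killing by drugs that damage DNA. SLFN5 is a nuclear, interferon-inducible member. SLFN12 becomes a toxic ribonuclease when it binds phosphodiesterase PDE3A in the presence of certain small molecules. SLFN13 cleaves transfer and ribosomal RNA and SLFN14 is a ribosome-bound ribonuclease of the platelet and red cell lineages.

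The 6 genes span 317.7 kb of chromosome 17 (GRCh38, gencode 44). SLFN5 lies at chr17:35243071-35273655 on the plus strand. The others lie on the minus strand in the order SLFN11 (chr17:35350305-35373701), SLFN12 (chr17:35410922-35433283), SLFN13 (chr17:35435096-35448837), SLFN12L (chr17:35464249-35537678) and SLFN14 (chr17:35543985-35560819). Exons of SLFN5, SLFN11, SLFN12 and SLFN13 overlap no exon of another gene. SLFN12L shares exon sequence with 2 other annotated genes, 1 of them on its own strand, and SLFN14 with 1 gene on the opposite strand, so low counts of these members are the least certain. Members also share sequence with each other or with genes outside the family. Of all 50-base windows in the annotated transcripts of SLFN11, 9.69% occur in another gene, all of them in SLFN13, and for SLFN13 the share is 7.03%. The share is 10.2% for SLFN12L, with 1351 of its 1400 shared windows found in genes outside the family. It is 1.36% for SLFN12, mostly shared with SLFN12L. For SLFN14 it is 1.35% and for SLFN5 0.197%, all of them windows found outside the family. STAR counts only reads that map to a single place, so reads from such stretches are lost where the read lies wholly within them.

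The promoter table used here, from RefSeq on GRCh38.p14, holds 3 of the 6 members, SLFN11, SLFN12 and SLFN12L, and not SLFN5, SLFN13 or SLFN14. The 250 bases before the RefSeq start of each are shown. They are given because several family genes are known interferon targets and genes of the interferon pathway rose after etoposide in these cell lines. The 3 windows lie on the minus strand at chr17:35373622-35373871, chr17:35433175-35433424 and chr17:35537679-35537928 and are written 5′ to 3′ along the gene. For SLFN11 and SLFN12 the gencode start given above lies inside the window, so the end of each of these windows belongs to the gencode gene. Capitals mark matches on either strand to the core of the interferon-stimulated response element (GAAANNGAAA), to the interferon-gamma activated sequence (TTCNNNGAA) and to an ETS factor core (CCGGAAG).
SLFN11: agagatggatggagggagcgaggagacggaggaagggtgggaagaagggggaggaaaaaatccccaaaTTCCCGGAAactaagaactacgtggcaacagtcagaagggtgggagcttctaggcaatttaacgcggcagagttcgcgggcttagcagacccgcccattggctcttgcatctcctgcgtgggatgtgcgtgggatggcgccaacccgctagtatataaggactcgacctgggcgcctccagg
SLFN12: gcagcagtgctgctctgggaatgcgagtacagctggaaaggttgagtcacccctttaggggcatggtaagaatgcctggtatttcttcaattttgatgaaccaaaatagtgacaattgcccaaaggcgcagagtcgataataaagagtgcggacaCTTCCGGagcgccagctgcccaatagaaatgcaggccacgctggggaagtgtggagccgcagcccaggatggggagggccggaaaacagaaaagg
SLFN12L: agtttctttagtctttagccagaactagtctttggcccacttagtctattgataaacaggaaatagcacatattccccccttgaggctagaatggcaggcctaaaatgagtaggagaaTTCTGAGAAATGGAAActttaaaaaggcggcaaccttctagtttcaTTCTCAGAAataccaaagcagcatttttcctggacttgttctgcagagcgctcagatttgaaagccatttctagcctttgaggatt
The SLFN12L window held GAAATGGAAA from base -126 to -117, counted back from the RefSeq start. It also held the pair TTCTGAGAA and TTCTCAGAA, the first of which overlaps the former match. The SLFN11 window held TTCCCGGAA from base -182 to -174, and the SLFN12 window held only the ETS core, read on the other strand as CTTCCGG. That ETS match lies inside SLFN12 as gencode places the gene. Of 35116 promoter windows of the same length, 3.02% held GAAANNGAAA, 6.57% TTCNNNGAA and 8.52% CCGGAAG. The SLFN11 window contained 15 CpG dinucleotides, the SLFN12 window 9 and the SLFN12L window 2, beside a median of 11 over all windows. These matches describe letters only, and no binding was measured.

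First, the untreated levels were compared across the 11 cell lines. SLFN11 was the family's leading gene in 9 of 11 cell lines when levels were set per kilobase of exon. Its share of the family total ranged from 51.4% in NOMO1 to 97.9% in HL60 among these 9. In F36P the leading gene was SLFN13 (67.2%), with SLFN11 at 18.9%. KASUMI1 expressed almost no Schlafen gene. Its family total was 0.0289 CPM per kb, whereas the other cell lines ranged from 3.92 CPM per kb in MV411 to 43.0 CPM per kb in NOMO1. The untreated level differed among cell lines for all 6 members (edgeR quasi-likelihood F-test, adjusted p between 4.21e-37 for SLFN13 and 1.56e-14 for SLFN14). However, 99.4% of the 18130 genes tested differed among these cell lines, so this sets the family apart from no other genes.

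**Figure D1:**
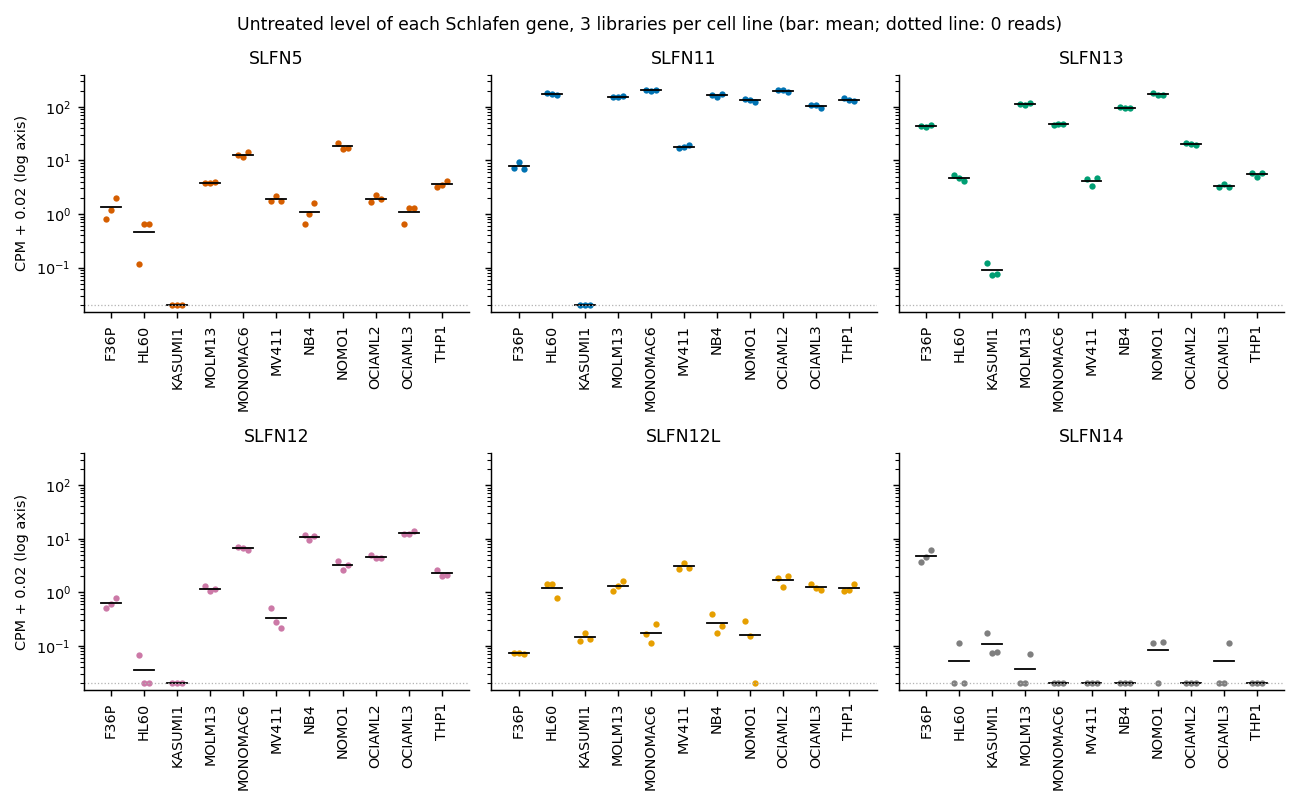
Untreated level of each Schlafen gene in CPM plus 0.02 on a log axis, with 1 point per library (3 per cell line), a bar at the mean and a dotted line at 0 reads. SLFN11 sits between 104 and 204 CPM in 8 cell lines and lower in MV411, F36P and KASUMI1, and SLFN14 is clearly above 0 only in F36P.

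SLFN11 was highest in MONOMAC6 (204 ± 5.16 CPM, SD, n = 3) and OCIAML2 (201 ± 9.76 CPM), whose libraries overlapped. HL60 (175 ± 7.37 CPM), NB4 (164 ± 11.01 CPM) and MOLM13 (153 ± 3.15 CPM) followed, each overlapping with the next. THP1 (137 ± 7.20 CPM) and NOMO1 (132 ± 7.75 CPM) overlapped with each other, and OCIAML3 (104 ± 6.25 CPM) lay below both. MV411 stood at 17.9 ± 1.27 CPM and F36P at 7.83 ± 1.22 CPM, neither overlapping with a neighbour. In KASUMI1 there was no SLFN11 read in any of the 3 untreated libraries, which allows a level of up to 0.0533 CPM. The cell lines therefore fell into 8 with SLFN11 above 100 CPM and 3 far below.

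SLFN13, a ribonuclease that cuts transfer RNA, reached 171 ± 9.25 CPM in NOMO1, 114 ± 6.33 CPM in MOLM13 and 96.3 ± 1.13 CPM in NB4, with no overlap between these. MONOMAC6 (47.5 ± 1.32 CPM), F36P (43.5 ± 2.001 CPM) and OCIAML2 (20.2 ± 0.667 CPM) formed a middle group, in which neighbours did not overlap either. THP1, HL60, MV411 and OCIAML3 lay between 3.30 and 5.49 CPM, and each overlapped with the next. KASUMI1 had 0.0705 ± 0.0279 CPM.

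SLFN12, the partner of PDE3A, was highest in OCIAML3 (12.8 ± 0.962 CPM) and NB4 (10.9 ± 1.19 CPM), which did not overlap. MONOMAC6 (6.65 ± 0.464 CPM), OCIAML2 (4.47 ± 0.338 CPM), NOMO1 (3.23 ± 0.655 CPM) and THP1 (2.25 ± 0.336 CPM) followed, and only NOMO1 and THP1 overlapped among them. MOLM13, F36P and MV411 lay between 0.318 and 1.15 CPM. HL60 had a single SLFN12 read over its 3 untreated libraries and KASUMI1 had 0 reads.

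SLFN5, the interferon-inducible member, was low in most untreated cell lines. It was highest in NOMO1 (18.2 ± 2.58 CPM) and MONOMAC6 (12.8 ± 1.43 CPM), which did not overlap with each other or with any cell line below. The next were MOLM13 (3.79 ± 0.0966 CPM) and THP1 (3.61 ± 0.466 CPM), which overlapped. OCIAML2, MV411, F36P, OCIAML3, NB4 and HL60 lay between 0.447 and 1.92 CPM, and each overlapped with its neighbour in that order. KASUMI1 had 0 SLFN5 reads.

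SLFN12L was scarce throughout, from 0.0529 ± 0.00269 CPM in F36P to 3.05 ± 0.451 CPM in MV411. MV411 did not overlap with the next cell line, and OCIAML2, MOLM13, OCIAML3, THP1 and HL60 formed a run of overlapping values between 1.19 and 1.67 CPM. SLFN14 was measured at 4.82 ± 1.31 CPM in F36P, and at 0.0876 CPM or less in every other cell line. In MONOMAC6, MV411, NB4, OCIAML2 and THP1 it had 0 reads in the untreated libraries. F36P was also the cell line with the highest levels of the erythroid genes HBG2 and KLF1.

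The genes whose untreated levels were most like each member's over the 11 cell lines were taken from 12128 protein-coding genes by Pearson's r of mean log2(1 + CPM). These values describe 11 points per gene that share libraries and depth, and carry no test. For SLFN5 they were SNAP25 (r = 0.944), IL4I1 (0.929) and FLRT1 (0.918). For SLFN11 they were NACC2 (0.947), LITAF (0.938) and SPN (0.918), for SLFN13 CD300A (0.897), LTB (0.849) and TTLL3 (0.848), and for SLFN12 BMP2 (0.955), ZNF862 (0.936) and ODAD2 (0.933). CD300A lies on chromosome 17 like the family, and the others lie on other chromosomes. No member was among another's closest genes. The highest r within the family was 0.656 between SLFN5 and SLFN13, and the lowest was 0.340 between SLFN5 and SLFN12. SLFN12L and SLFN14, with means of 0.943 and 0.459 CPM, lay under the minimum of 1 CPM set for these measures.

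The untreated levels were then set against the IC50 of the cell lines, since SLFN11 is known as a determinant of the response to DNA damage. The IC50 values are those of the study. None of 13673 genes tested had an adjusted p under 0.05 (0%), while 1969 had an unadjusted permutation p under 0.05. SLFN13 had a Pearson's r of -0.00134 (permutation p = 0.998), while its Spearman's rho was -0.173 (permutation p = 0.614). SLFN12 had an r of -0.321 (permutation p = 0.375) and a rho of -0.336 (permutation p = 0.314), and for SLFN5 r was -0.101 (permutation p = 0.743) and rho -0.00909 (permutation p = 0.990). SLFN11 had an r of -0.617 (permutation p = 0.0860, adjusted over all genes 0.400) and a rho of -0.582 (permutation p = 0.0655). The adjusted p was 0.901 for SLFN5, 0.999 for SLFN13 and 0.693 for SLFN12. Hence lower levels went with a higher IC50 for SLFN11, but not past the threshold. When 1 of these cell lines was left out, r was -0.676 without F36P (permutation p = 0.0428) and -0.745 without KASUMI1 (permutation p = 0.0325), both unadjusted. F36P and KASUMI1 had the IC50 most distant from the median. When this pair was left out, r was -0.0752 for SLFN11 (permutation p = 0.808) and 0.662 for SLFN5 (permutation p = 0.0528). It was 0.0583 for SLFN13 (permutation p = 0.904) and 0.142 for SLFN12 (permutation p = 0.737), all unadjusted. The relation of SLFN11 therefore rested on F36P and KASUMI1 together, which had the lowest SLFN11 and the highest IC50 of all 11. MV411, also low in SLFN11, had rank 5 from the highest IC50, and MONOMAC6, with the most SLFN11, rank 3. Within the 8 cell lines with SLFN11 above 100 CPM, a set chosen after the levels were seen, r was 0.114 (permutation p = 0.789, n = 8). These 8 spanned only 104 to 204 CPM, so this r cannot show whether a relation was present among them.

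Next, etoposide-treated libraries were compared with untreated libraries in each cell line. A gene was called induced or repressed with an adjusted p under 0.05 and a change of more than 2-fold (edgeR quasi-likelihood test, Benjamini-Hochberg over all genes tested in the cell line). SLFN5 rose in 9 of 10 cell lines, SLFN12 in 3, and SLFN11, SLFN13 and SLFN12L in F36P alone. SLFN14 was not called in any. A single fall was called, that of SLFN11 in MV411. In bulk RNA, more transcripts per cell and more cells that express a gene cannot be told apart.

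Of the 60 pairs of a member and a cell line, 42 had enough reads to be tested, and 15 of these were called induced and 1 repressed. Over all genes in the 10 cell lines, 11.1% of 143149 pairs were called induced and 3.96% repressed. In 4 of the 42 pairs fewer than 3 untreated libraries reached the minimum read count, namely SLFN5 in HL60 and KASUMI1, and SLFN12 and SLFN12L in F36P. SLFN5 in KASUMI1 and SLFN12L in F36P had no untreated library past it and so had to be higher in their etoposide libraries, so the 42 pairs are no unbiased sample of the family.

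By cell line, 5 of the 6 members tested were called induced in F36P, where 24.3% of all genes tested were induced. Lineage markers moved in F36P as well. Of 5 erythroid markers, 2 were called repressed (HBG1 and KLF1) and the median log2 fold change was -0.90, with a summed level of 5463 to 7708 CPM untreated and 3697 to 4206 CPM treated. Of 6 lymphoid markers 4 were tested and 2 were called induced, with a summed level of 9.20 to 11.2 CPM untreated and 22.4 to 29.1 CPM treated. Of the lymphoid markers NKG7, a granule protein of cytotoxic cells, was called induced in 7 of 10 cell lines, and MS4A1, a defining B cell marker, had 0 reads in 6 of 10. Marker changes were not confined to F36P. The myeloid marker MPO was called repressed in 5 of 10 cell lines, namely HL60, KASUMI1, MONOMAC6, NB4 and NOMO1, and induced in 0. Over the 10 cell lines its log2 fold change ranged from -2.30 to 0.78. The part of these markers in the family's changes was not tested. The count of tested family members called induced was 1 of 1 in KASUMI1 (14.6% of all genes) and 1 of 5 in MOLM13 (8.59%). It was 1 of 4 in MONOMAC6 (8.53%) and 1 of 4 in MV411 (12.5%). In NB4 it was 1 of 4 (13.2%), in NOMO1 2 of 4 (8.34%), in OCIAML3 2 of 5 (7.18%) and in THP1 1 of 5 (6.38%). In HL60 none of 4 members tested was induced, and none had an unadjusted p under 0.05, against 5.34% of all genes induced. Outside F36P, the single member induced in MOLM13, MONOMAC6, MV411, NB4, THP1 and KASUMI1 was SLFN5 in each case.

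**Figure D2:**
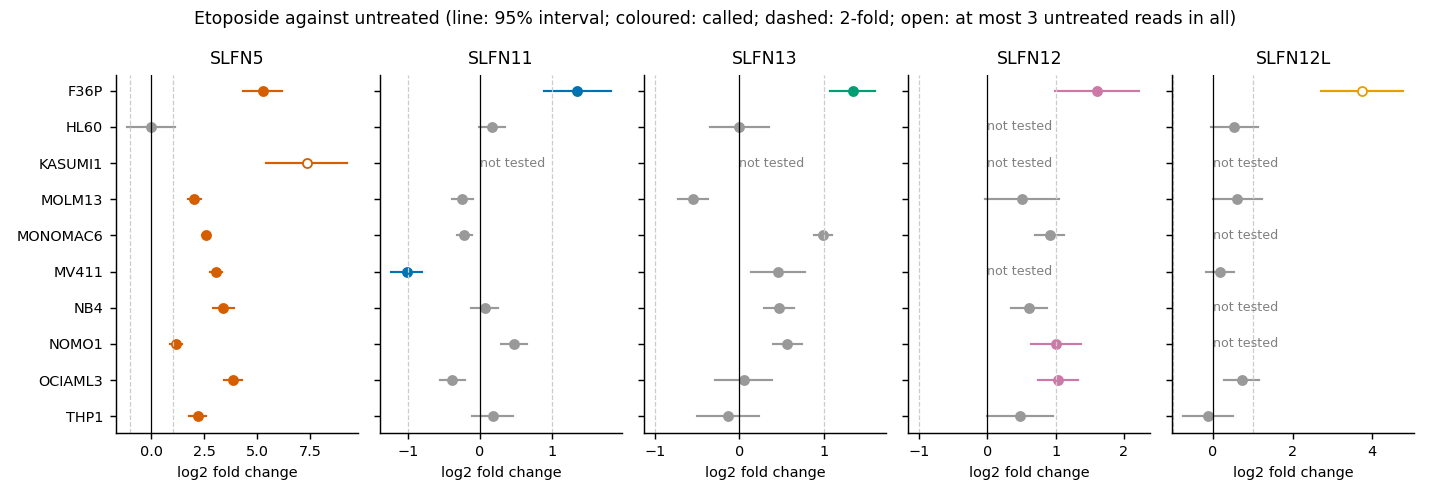
Log2 fold change of etoposide against untreated for 5 members in 10 cell lines, with 95% intervals, a separate horizontal scale per gene, dashed lines at a 2-fold change and colour where a call was made. Open symbols mark pairs with at most 3 untreated reads in all. SLFN5 lies to the right of the 2-fold line in 9 cell lines, whereas SLFN11 lies on both sides of 0.

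SLFN5 changed most in F36P and KASUMI1. In F36P the untreated libraries held 14, 22 and 40 SLFN5 reads and the etoposide libraries 1569, 591 and 1255. The log2 fold change was 5.25 (SE 0.42, adjusted p = 6.14e-06), or 38.1-fold, and the groups were far apart although the second etoposide library lay well below the other two. In KASUMI1 the untreated libraries held 0, 0 and 0 reads and the etoposide libraries 28, 16 and 20 (adjusted p = 0.00015). Against the limit of 3 reads over the untreated group, SLFN5 was at least 17.8-fold higher in treated KASUMI1. It still ended at only 0.950 CPM there, below its untreated level in most cell lines.

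In 3 other cell lines the rise lay between 8.29-fold and 14.3-fold. OCIAML3 went from 13, 26 and 27 reads to 319, 345 and 354 (log2 fold change 3.84, SE 0.19, adjusted p = 3.71e-06). NB4 went from 13, 19 and 30 to 292, 233 and 265 (3.40, SE 0.23, adjusted p = 1.23e-08), and MV411 from 35, 40 and 35 to 442, 374 and 390 (3.05, SE 0.14, adjusted p = 1.14e-13). In each of the 3, every etoposide library was above every untreated one by a wide margin.

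In the 4 cell lines with the highest untreated levels the folds lay between 2.26 and 5.96. MONOMAC6 rose from 265, 242 and 305 reads to 1934, 1627 and 1825 (log2 fold change 2.58, SE 0.085, adjusted p = 7.8e-10), which gave the highest treated level of all, 80.2 CPM. THP1 rose from 63, 71 and 81 to 399, 253 and 460 (2.19, SE 0.20, adjusted p = 1.81e-07), and MOLM13 from 74, 73 and 77 to 311, 262 and 279 (2.02, SE 0.14, adjusted p = 2.58e-06). NOMO1, with the highest untreated level, rose from 457, 366 and 342 to 801, 885 and 1032 (1.18, SE 0.13, adjusted p = 1.56e-05).

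HL60 was the exception among the 10. It held 2, 13 and 12 untreated SLFN5 reads and 6, 9 and 13 treated ones, and the groups overlapped entirely. The log2 fold change of -0.03 (SE 0.52, adjusted p = 0.969) had a 95% interval from -1.16 to 1.09, so at this depth a change of about 2-fold was not detectable in HL60. In OCIAML2, with 34, 44 and 36 reads in untreated libraries and 50, 40 and 26 in those labelled etoposide, the log2 fold change was 0.02 (SE 0.22, adjusted p = 0.998).

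**Figure D3:**
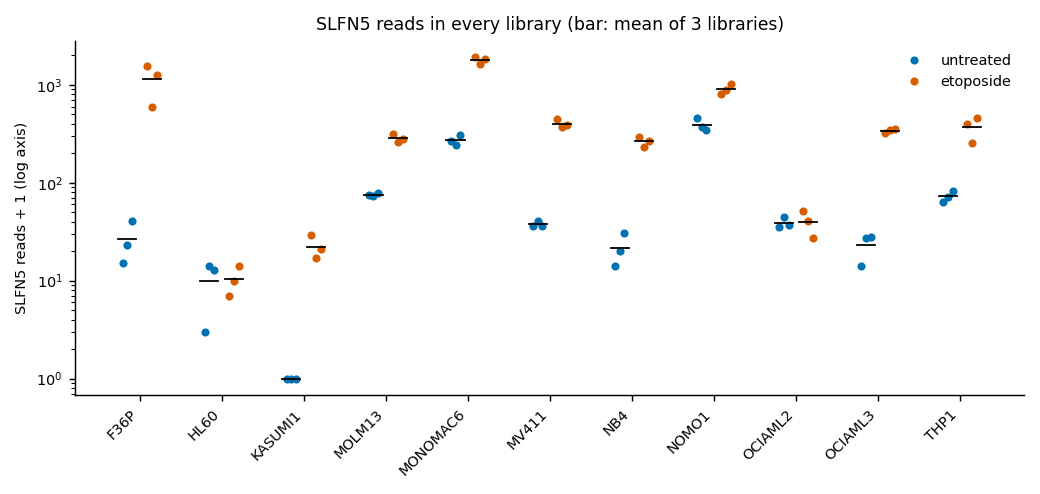
SLFN5 reads plus 1 in all 66 libraries on a log axis, untreated and etoposide, with a bar at the mean of 3 libraries. The groups do not overlap in 9 cell lines and overlap in HL60 and in OCIAML2, whose libraries labelled etoposide failed quality control.

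Over the 10 cell lines the mean log2 fold change of SLFN5 was 3.08 ± 2.08 (SD, n = 10, exact sign-flip permutation p = 0.00391, adjusted over all genes 0.0175), and it was above 0 in 9 of 10. With KASUMI1 at its bound of 4.16 the mean was 2.76 ± 1.53 (exact sign-flip permutation p = 0.00391). Of 13595 genes with a mean change over at least 6 cell lines, 39.2% had an adjusted p under 0.05. The size of the change differed among cell lines for SLFN5 (edgeR quasi-likelihood F-test of the interaction, adjusted p = 7.66e-14), as it did for 74.5% of 19974 genes tested. The concentration differed between cell lines too, and its part in these differences was not tested.

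SLFN12 rose in 3 cell lines and had a log2 fold change above 0 in all 7 in which it was tested. In F36P it went from 9, 11 and 15 reads to 52, 33 and 40 (log2 fold change 1.60, SE 0.28, adjusted p = 0.000638). In OCIAML3, the cell line with most SLFN12, it went from 244, 248 and 294 reads to 597, 641 and 485 (1.03, SE 0.13, adjusted p = 0.00043). In NOMO1 it went from 84, 57 and 65 to 134, 150 and 144 (1.01, SE 0.17, adjusted p = 0.000335). The last 2 lie at the edge of the 2-fold limit, with folds of 2.05 and 2.01. Both fell just under that limit in 4 of the 6 fits with 1 replicate number left out, to between 0.86 and 0.99 in NOMO1 without untreated replicate 2 or 3 or etoposide replicate 2 or 3, and to between 0.95 and 1.00 in OCIAML3 without untreated or etoposide replicate 1 or 2. The call in NOMO1 was also lost with RLE scaling (0.97), with DESeq2 (0.97) and in 1 fit of 60 libraries (0.98). MONOMAC6 lay just inside, from 147, 142 and 132 reads to 292, 269 and 320 (0.91, SE 0.096, adjusted p = 6.12e-06), and NB4 had a log2 fold change of 0.61 (SE 0.12, adjusted p = 0.000583). Both passed the adjusted p but not the fold limit. MOLM13 (0.51, adjusted p = 0.0997) and THP1 (0.47, adjusted p = 0.124) passed neither.

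The mean over the 7 cell lines was 0.88 ± 0.40 (SD, n = 7, exact sign-flip permutation p = 0.0156, adjusted over all genes 0.0419). That p is the smallest 7 values can give. Without F36P the mean was 0.76 and the adjusted p 0.0722, with 6 of 6 values above 0 and the unadjusted p of the exact sign-flip permutation test at 0.03125, the smallest that 6 values allow. In HL60, KASUMI1 and MV411 SLFN12 had too few reads to be tested, with at most 10 in any library. In MV411 the 3 untreated libraries held 10, 5 and 4 reads and the treated ones 8, 2 and 5.

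The phosphodiesterases PDE3A and PDE3B behaved differently from each other. PDE3A, the phosphodiesterase that activates SLFN12 when glued to it, was tested in 4 cell lines and induced in 3. It rose from 4.48 ± 0.479 to 37.0 ± 2.72 CPM in OCIAML3 (log2 fold change 3.04, SE 0.11, adjusted p = 7.38e-07), in which SLFN12 also rose. It rose from 0.837 to 4.88 CPM in NB4 (2.52, SE 0.27, adjusted p = 1.46e-06) and from 0.155 to 1.37 CPM in THP1 (3.09, SE 0.45, adjusted p = 4.67e-05). In F36P it was 3.12 CPM untreated and 2.41 CPM treated (adjusted p = 0.392). The untreated level in THP1 lay under the filter minimum of 0.493 CPM. There PDE3A entered the test through its etoposide libraries and so had to be higher in them. PDE3B, its paralog, was present in every cell line and not called in any, with log2 fold changes from -0.87 to 0.01.

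SLFN13 was called only in F36P. It rose there from 782, 781 and 912 reads to 2745, 2183 and 2376 (log2 fold change 1.34, SE 0.12, adjusted p = 1.23e-05), with no overlap. MONOMAC6 lay just outside the fold limit, with 955, 1036 and 1017 reads before and 2245, 2098 and 2298 after (0.99, SE 0.051, adjusted p = 2.03e-08), a 1.98-fold rise. It was called when the libraries were scaled by size alone (1.11), and without untreated replicate 2 (1.00) or etoposide replicate 2 (1.00). Smaller rises that passed the adjusted p were seen in NOMO1 (0.56, SE 0.079), NB4 (0.47, SE 0.085) and MV411 (0.46, SE 0.16). In MV411 the adjusted p was 0.0927 without untreated replicate 2 and 0.0811 without etoposide replicate 2.

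MOLM13 went the other way. It had 2275, 2098 and 2367 SLFN13 reads untreated and 1483, 1478 and 1372 treated, and SLFN13 fell by 0.55 on the log2 scale (SE 0.079, adjusted p = 0.00024), with no overlap. In HL60, OCIAML3 and THP1 the groups overlapped and log2 fold changes lay between -0.14 and 0.05. In KASUMI1 there were 2, 1 and 1 reads untreated and 10, 7 and 4 treated, too few for the test. The change of SLFN13 differed among cell lines (edgeR quasi-likelihood F-test of the interaction, adjusted p = 2.12e-17), and its mean over 9 cell lines was 0.35 ± 0.58 (SD, n = 9, exact sign-flip permutation p = 0.133).

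SLFN11 had no common direction. The mean log2 fold change over the 9 cell lines in which it was tested was 0.04 ± 0.65 (SD, n = 9, exact sign-flip permutation p = 0.832), and the change differed among cell lines (edgeR quasi-likelihood F-test of the interaction, adjusted p = 3.06e-14). In F36P, SLFN11 rose from 131, 173 and 140 reads to 464, 312 and 556 (1.36, SE 0.21, adjusted p = 0.000313). In MV411 it fell from 339, 333 and 396 reads to 256, 237 and 201, by 1.02 on the log2 scale (SE 0.10, adjusted p = 2.33e-08), or 2.03-fold. That fall lies at the fold limit. It was -0.89 when libraries were scaled by size alone, -0.97 without untreated replicate 3 and -0.95 without etoposide replicate 3, each with an adjusted p under 0.05 but no call. Thus F36P and MV411, the cell lines with low but detectable SLFN11, were the ones in which it was called, in opposite directions.

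In the cell lines with SLFN11 above 100 CPM the changes were smaller. NOMO1 rose from 2987, 2952 and 2508 reads to 3786, 4077 and 4206 (log2 fold change 0.47, SE 0.084, adjusted p = 0.000551). OCIAML3 went from 2185, 2141 and 2051 to 1815, 1755 and 1672, and SLFN11 fell by 0.38 (SE 0.075, adjusted p = 0.00413). It also fell by 0.25 in MOLM13 (SE 0.065, adjusted p = 0.00838) and by 0.22 in MONOMAC6 (SE 0.046, adjusted p = 0.00141), where the groups separated only after scaling and not in reads. With library size alone the value in MONOMAC6 was -0.10 (adjusted p = 0.0632). In 1 fit of 60 libraries the adjusted p was 0.1104 in MONOMAC6 and 0.188 in MOLM13, and it was 0.0617 in MOLM13 without etoposide replicate 3. HL60, NB4 and THP1 had log2 fold changes of 0.17, 0.07 and 0.18, with overlapping groups and adjusted p of at least 0.16. In KASUMI1 SLFN11 had 0 reads untreated and 0, 1 and 1 treated, so that SLFN5 appeared there while SLFN11 stayed at the limit of detection.

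SLFN12L rose in F36P from 1, 1 and 1 reads to 19, 13 and 20 (adjusted p = 7.88e-05). With 3 untreated reads in all the ratio, on TMM-scaled library sizes, was 13.8, with a 95% counting interval from 4.46 to 68.99 (exact binomial, counting error only). In OCIAML3 it went from 28, 24 and 23 to 49, 43 and 41 reads (log2 fold change 0.72, SE 0.19, adjusted p = 0.0157), a change of less than 2-fold. That adjusted p was 0.0587 with DESeq2 and between 0.0543 and 0.0645 in 3 of the 6 fits with 1 replicate number left out. HL60, MOLM13, MV411 and THP1 had adjusted p of at least 0.083, and in KASUMI1, MONOMAC6, NB4 and NOMO1 it had too few reads to be tested. The mean over 6 cell lines was 0.95 ± 1.40 (SD, n = 6, exact sign-flip permutation p = 0.0625).

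SLFN14 could be tested in F36P only. It had 67, 84 and 125 reads untreated and 197, 139 and 180 treated, and its log2 fold change of 0.68 (SE 0.22, adjusted p = 0.0231) passed the adjusted p but not the fold limit, with scaled values that overlapped. The adjusted p was between 0.0632 and 0.0838 in 4 of the 6 fits with 1 replicate number left out, and the log2 fold change was 0.45 without untreated replicate 1. In NOMO1 it had 2, 0 and 2 reads before and 7, 12 and 3 after, and in KASUMI1 3, 1 and 1 before and 8, 5 and 6 after. In the other 8 cell lines no library held more than 2 reads. The interaction test gave an adjusted p of 0.314 for SLFN14, while those for SLFN12 and SLFN12L were 0.00704 and 0.000175 (edgeR quasi-likelihood F-test). Thus the change differed among cell lines for 5 of 6 members, beside 74.5% of all genes. Without F36P it differed for 4, beside 72.8% of 18829 genes, and SLFN12L then had an adjusted p of 0.0713.

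The make-up of the family was then compared before and after etoposide. Shares are of the family's summed CPM per kb, as means of 3 libraries. In MV411, SLFN5 went from 4.43% to 37.6% of the family and SLFN11 from 76.3% to 38.5%, while the family total was 4.18 CPM per kb before and 4.09 CPM per kb after. In MONOMAC6, SLFN5 went from 2.85% to 14.3% and SLFN11 from 80.8% to 58.6%. In F36P, SLFN5 went from 1.78% to 22.1% as the family total went from 7.71 to 22.2 CPM per kb, with SLFN13 still leading at 54.7%. In OCIAML3, SLFN12 went from 16.3% to 31.8%. In HL60 SLFN11 held 97.9% before and 98.0% after. SLFN11 led the family in the same 9 cell lines before and after etoposide, SLFN13 led in F36P both times, and in KASUMI1 the shares rest on a handful of reads.

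**Figure D4:**
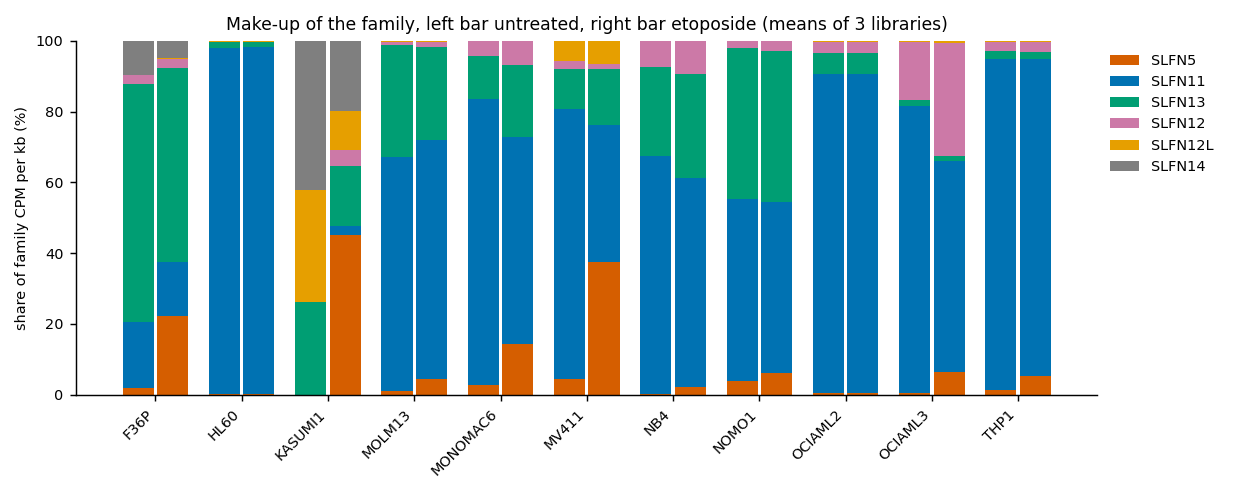
Share of each Schlafen gene in the family's summed CPM per kb of exon, in percent, untreated (left bar) and etoposide (right bar) for each cell line. Apart from KASUMI1, whose bars rest on very few reads, the SLFN5 share grows most in MV411, from 4.43% to 37.6%.

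Interferon response genes were set beside SLFN5, which is itself known as an interferon target. The list held 34 genes of the interferon pathway, from receptors to targets. In F36P 28 of 34 tested were called induced (24.3% of all genes), and in KASUMI1 26 of 32 (14.6%). The counts were 20 of 31 in NB4 (13.2%) and 19 of 34 in THP1 (6.38%). In MV411 18 of 30 were induced (12.5%), and in MONOMAC6 18 of 33 (8.53%). The median log2 fold change of the tested genes was 2.48 in F36P, 1.74 in NB4 and 1.52 in KASUMI1, beside medians over all genes of 0.09, 0.01 and 0.03. Fewer were induced in NOMO1 (7 of 32, beside 8.34% of all genes) and OCIAML3 (6 of 29, beside 7.18%). The same held for MOLM13 (5 of 32, beside 8.59%) and HL60 (5 of 27, beside 5.34%). Listed genes with few untreated reads could enter the test through their etoposide libraries alone and then had to be higher in them. How many did so was not examined, so these counts and medians are no unbiased sample of the list. In none of the 10 was a gene of the list called repressed, and in OCIAML2 0 of 26 were called.

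The genes induced in the most cell lines were IFI6 and OAS3, each called in 9 of 10 cell lines. IFI6, a mitochondrial interferon target, had log2 fold changes from 0.99 to 4.14, and OAS3, a sensor of double-stranded RNA, from 0.95 to 4.83. IRF7, IFIT2, OAS1 and OAS2 were each induced in 8. In OCIAML3 SLFN5 rose 14.3-fold while the list had a median log2 fold change of 0.72. In MOLM13 SLFN5 rose 4.05-fold beside a list median of 0.46. In HL60, by contrast, OAS3, OAS1, MX1, IRF7 and USP18 were induced and SLFN5 was not detectably changed.

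**Figure D5:**
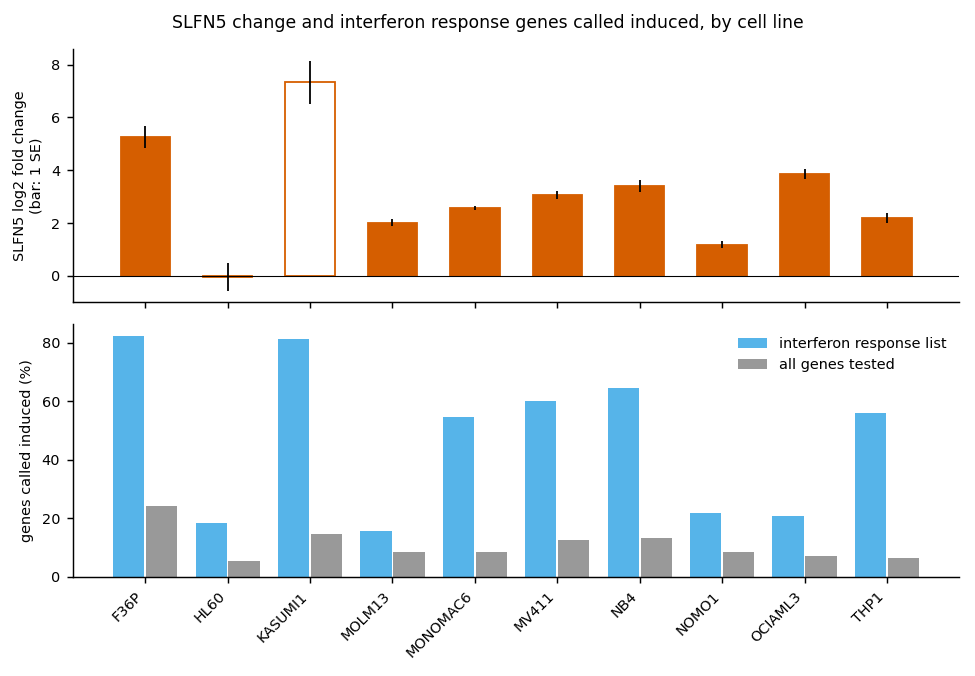
Log2 fold change of SLFN5 with 1 SE (top, with KASUMI1 as an open bar because it had 0 untreated reads) and percent of tested genes called induced on the interferon response list and among all genes (bottom), for 10 cell lines. F36P and KASUMI1 are highest in both, whereas OCIAML3 shows a large SLFN5 change beside 6 of 29 listed genes induced.

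Among 17 genes that act with SLFN11 at replication forks, such as the RPA subunits that bring it there, 16 were tested in each cell line. In MOLM13 5 of 16 were called repressed, namely DTL, CHEK1, CLSPN, TIPIN and CDC45, beside 462 of 13710 genes tested there. The median log2 fold change of the 16 was -0.82, beside -0.0035 over all genes. In the other 9 cell lines at most 1 gene was called in either direction, with medians between -0.28 and 0.37. DTL, a substrate adaptor of the CUL4 ubiquitin ligase, was the gene called most often, induced in NOMO1 and repressed in MOLM13. RPA1, RPA2 and RPA3 were not called in any cell line.

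Of 8 genes known to act on SLFN11 transcription, ETS1, an ETS family activator, was induced in F36P (log2 fold change 3.54), NOMO1 (1.45) and HL60 (1.08). It was 0.219 CPM in untreated F36P and 99.0 CPM in untreated HL60. The F36P level lay under the filter minimum of 0.527 CPM, so ETS1 entered the test there through its etoposide libraries. SLFN11 was called induced in F36P and was called in neither NOMO1 nor HL60. FLI1, the polycomb genes EZH2, EED and SUZ12, the methyltransferase DNMT1 and the deacetylases HDAC1 and HDAC2 were not called in any of the 10. Around the cluster, within 250 kb of its ends, 48 other genes are annotated. Between 8 and 14 of them were tested in a cell line, and at most 3 were called induced and 2 repressed. Over all genes in the 10 cell lines, 11.1% of pairs of a gene and a cell line were called induced and 3.96% repressed. NLE1, a ribosome assembly factor, was repressed in F36P, KASUMI1 and MONOMAC6, with a median log2 fold change of -0.76 over 10 cell lines. The other genes called in at least 2 cell lines have no symbol, and both lie on the strand of SLFN12 just past its 3′ end. ENSG00000267102, a transcribed pseudogene at chr17:35409602-35410228, begins 694 bases past SLFN12 and was induced in NB4 (log2 fold change 1.18, SE 0.26, adjusted p = 0.00129) and OCIAML3 (1.12, SE 0.17, adjusted p = 0.00125). ENSG00000267547, a long noncoding RNA gene at chr17:35403837-35404373, begins 6549 bases past SLFN12 and was induced in OCIAML3 (1.41, SE 0.34, adjusted p = 0.011) and MONOMAC6 (1.55, SE 0.39, adjusted p = 0.00434). They were tested in 4 and 3 of the 10 cell lines, among them OCIAML3, NB4 and MONOMAC6, the cell lines with most SLFN12. Transcripts of their own and transcripts that run on from SLFN12 cannot be told apart in these counts.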

How the data were processed

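RNA of 11 AML cell lines was sequenced as single-end reads from a stranded mRNA kit, with 3 biological replicates for each of untreated and etoposide. The authors checked reads with FastQC 0.11.5, mapped them to GRCh38.p7 with gencode release 25 in STAR 2.5.3a and deposited raw counts per gene, 1 column per library. The strand setting was not given in the sources used here. Counting without strand gives 0 to a gene nested in an exon of a gene on the other strand, and 470 of 716 such genes had counts. The authors' own test was edgeR 3.20.1. The 45 copies of pseudoautosomal genes on Y, with 0 reads, were left out, and 56948 of 57992 identifiers had a gencode 44 name. Members and gene lists were chosen with earlier results of these data known.

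Counts were tested per cell line with the quasi-likelihood test of edgeR 4.0.16 in R 4.3.3 (filterByExpr set to 10 reads per library and 15 in all, TMM scaling, Benjamini-Hochberg over all genes tested). Untreated levels (33 libraries) and differences in change among cell lines (60 libraries) were tested by F-tests in the same tool. Untreated CPM were scaled by TMM over the 33 untreated libraries, and CPM beside etoposide values within each cell line. The mean change had 1 value per cell line and an exact two-sided sign-flip permutation test over at least 6 cell lines. Correlations used log2(1 + CPM) and log2(1 + IC50) with 100000 permutations, over genes whose mean reached 1 CPM, with the IC50 values read from the study's supplementary text. The SE of a log2 fold change is its size divided by the root of F. Levels between genes were compared per kilobase of merged exons.

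All 6 members were named in every cell line. From the gene lists the counts called were given, with the genes called in the most cell lines by name and PDE3A and PDE3B in any case. Some genes of these lists are not reported here by name. For each member the 3 most alike protein-coding genes were named, and neighbours within 250 kb were named when called in at least 2 cell lines. Genes named beyond this rule were chosen after their values were seen.

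Replicates differed by more than sampling noise in every group (lowest chi-square per degree of freedom 2.12). Same-numbered untreated and etoposide libraries deviated together in NB4 (every correlation at least 0.152, above the limit of 0.1) and in no other cell line. At the depth of 17997404 to 24101670 reads, 0 reads in 3 untreated libraries allow a level of up to 0.0470 to 0.0533 CPM, a limit of 3 counts that covers counting error only. Alternatives were DESeq2 1.42.0, the edgeR exact test, RLE scaling or library size alone, other filters on low counts, no fold limit, all 60 libraries in 1 fit, blocking by replicate number, each replicate number left out, and omission of F36P or KASUMI1. Correlations were also run with Spearman's rho, on raw IC50 values and with 0.25 CPM as pseudocount. The code of the tests was tested on simulated data. The p-values of the edgeR and DESeq2 tests measure the spread between these libraries. Those of the mean change and of the correlations, with 1 value per cell line, measure the spread between cell lines.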

Additional observations from a re-analysis of the deposited data

Results flagged for a closer look

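In F36P the log2 fold change of SLFN12L (3.75) stood apart from those of the other 5 cell lines in which it was tested, and it rests on 3 untreated reads. By chance about 1 in 20 such groups is flagged, and 5 members were examined. The etoposide change differed among the 10 cell lines by the interaction test of edgeR for SLFN5 (adjusted p = 7.66e-14), SLFN11 (3.06e-14), SLFN13 (2.12e-17), SLFN12 (0.00704) and SLFN12L (0.000175), where 74.5% of all genes tested differed. For SLFN11 and SLFN13 the change went both ways, with SLFN11 induced in F36P and repressed in MV411 and SLFN13 induced in F36P and lower in MOLM13 (adjusted p = 0.00024). For SLFN5 and SLFN12 no cell line had a fall that passed the test.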

How the results depend on the processing

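Of 576 refits of the 42 changes by member and cell line, 540 kept direction and call, 16 lost the call, 4 gained it and 16 changed sign, all 16 for values near 0 and not called. The sign changes were SLFN5 in HL60 (0.068 with library size alone, 0.000053 in 1 fit of 60 libraries and -0.51 to 0.29 with a replicate number left out), SLFN13 in HL60 (0.10 with library size alone, 0.014 at a mean of 5 CPM, 0.027 in 1 fit of 60 libraries, 0.0028 with the replicate block and -0.078 to 0.10 with a replicate number left out), SLFN13 in OCIAML3 (-0.065 to 0.13) and SLFN12L in THP1 (-0.38 to 0.061), both with a replicate number left out.

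Induced pairs numbered 15, between 12 and 19 under other settings, 24 without the fold limit and between 14 and 15 with a replicate number left out. Without F36P they were 10 of 36 tested. The 1 repressed pair became 0 with library size alone, with a minimum mean of 5 CPM and in 1 fit of 60 libraries, 5 without the fold limit, and between 0 and 1 with a replicate number left out. The replicate block gave 15 induced and 1 repressed pair and changed no call, NB4 included, and 5 members differed in change with it. Library size alone raised the median log2 fold change of all genes by up to 0.25, and the changes above are relative to TMM.

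Without F36P the mean change was -0.12 for SLFN11 and 0.76 for SLFN12 (adjusted p = 0.0722, where 6 values cannot give a smaller unadjusted p). For SLFN12L it lay between 0.80 and 1.08 with a replicate number left out, and past the threshold without untreated replicate 3 (0.94, adjusted p = 0.0426) or etoposide replicate 2 (1.08, adjusted p = 0.0424). With the IC50, r of SLFN5 was 0.662 without F36P and KASUMI1 (permutation p = 0.0528, unadjusted), 0.0692 without F36P and 0.000165 without KASUMI1. That of SLFN13 was 0.0583 without both, 0.160 without KASUMI1 and 0.152 on the raw scale, and that of SLFN12 was 0.142 without both. For SLFN11 r was -0.676 without F36P (permutation p = 0.0428) and -0.745 without KASUMI1 (permutation p = 0.0325). On raw IC50 values r of SLFN11 was -0.426 (permutation p = 0.0962), and with 0.25 CPM as pseudocount -0.567 (permutation p = 0.0956). It was 0.114 without F36P, KASUMI1 and MV411, a choice made after seeing the data like the omission of F36P from the pairs. The cause of these moves was not tested. Untreated levels under 1 CPM limit what could be tested. They were those of SLFN14 outside F36P and of SLFN12L in NB4, MONOMAC6, NOMO1, KASUMI1 and F36P, among others.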
